A study of Mus musculus with 4 samples.

Results

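Krt6a, Krt6b, Krt16, Krt17, Krt75 and Krt79 are the keratins described here, as they were transcribed in inflamed mouse facial skin. Their data are every entry of the deposited matrix that carries 1 of these 6 gene symbols. The 6 genes are among 17037 genes that held tags and were kept, and among 49 keratin genes with tags. They hold 64 of 69391 entries, and none of the 64 is listed under a second gene. Each entry is a cluster, a short stretch of 1 strand on which RNA starts were seen.

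The starts were counted by cap analysis of gene expression (CAGE), which reads a short tag at the cap of each RNA molecule, so long and short RNAs give the same number of tags. All 4 libraries come from lesional facial skin of C57BL/6 mice at postnatal day 28, with the genotype that the labels write as Nectin-cre(+);Ikk2FL/FL;Postn-/-. FADS is a mouse model of facial dermatitis that arises where a Cre recombinase removes Ikk2, a kinase of the NF-kappa-B pathway, and Postn encodes the matrix protein periostin. The labels name 1 group and no control. The sample codes end in 1L and 1R for libraries 1 and 2 and in 2L and 2R for libraries 3 and 4, and the labels do not say what this stands for or whether the 4 skins came from 4 animals. The p-values of the tests for spread measure how much these 4 samples spread and nothing more, and that spread may be technical. Those of the permutation test concern only whether 1 gene exceeds another within these same 4 samples.

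Keratins are the intermediate filament proteins of epithelia, and a filament is built from pairs of a type I and a type II keratin. Krt6a, Krt6b, Krt75 and Krt79 encode type II keratins, and Krt16 and Krt17 encode type I keratins. Krt6a, Krt6b, Krt16 and Krt17 are called stress keratins. Normal epidermis between hair follicles holds little of them, while wounded and inflamed epidermis makes them in large amounts, and some are also made in the outer root sheath and companion layer of the follicle. Krt75 is the keratin of the companion layer, the single sheet of cells between the outer and inner root sheaths of a growing hair, and Krt79 marks the funnel of the upper follicle and the duct of the sebaceous gland.

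The genes of the type II keratins lie together on mouse chromosome 15 and those of the type I keratins on chromosome 11, and all 6 are read from the minus strand. Of the 6, RefSeq promoters of GRCm38.p6 were at hand for Krt75 and Krt79 and for neither Krt6a, Krt6b, Krt16 nor Krt17. They are shown because the most used starts of Krt75 and Krt79 differ in width. A search for TATAAA and ATAAAA, both TATA-like, on both strands of the 300 bases from 250 before to 50 after the RefSeq start found 1 match in each, of ATAAAA, on the strand of the gene. Capitals mark it. The first 2 sequences are the 60 bases before the start of each gene, and the third holds 24 bases after the start of Krt79.
Krt75, chr15:101573905-101573964, minus strand: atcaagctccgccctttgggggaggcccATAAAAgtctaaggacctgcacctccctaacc
Krt79, chr15:101940325-101940384, minus strand: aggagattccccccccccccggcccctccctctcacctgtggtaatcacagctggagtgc
Krt79, chr15:101940278-101940301, minus strand: tgggaaaagATAAAAaggtgtttg
In Krt75 the match lay at positions -32 to -27 from the RefSeq start, and in Krt79 at 32 to 37, inside the transcribed part. Of 32851 RefSeq promoters of the same length, 18.5% held ATAAAA on either strand, and 1.72% held it on the gene's strand between -40 and -16, where the match in Krt75 lay. For TATAAA, which shares 5 letters with ATAAAA when shifted by 1 base, these shares were 13.6% and 1.99%, and 1309 promoters held both.

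Levels are given as CPM, the tags of a gene scaled to a common total over all entries of a library. Krt6b, a stress keratin of type II, was the most abundant of the 6, with 1241, 1147, 1885 and 1233 CPM in libraries 1 to 4. That is 1377 ± 342 CPM (SD, n = 4) and rank 30 of 17037 genes. Library 3 stood above the other 3, which lay close together. Its near copy Krt6a held 748, 730, 1021 and 667 CPM, or 792 ± 157 CPM (SD, n = 4), rank 103. Library 3 was again the highest, and Krt6a held 0.581 ± 0.0474 times the level of Krt6b (SD, n = 4).

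Among the type I stress keratins, Krt17 held 1174, 1229, 1397 and 1127 CPM, or 1232 ± 118 CPM (SD, n = 4), rank 37. Its libraries differed the least of the 6 genes, with a highest to lowest ratio of 1.24. Krt16, the partner that keratin 6 pairs with in stressed epidermis, held 1047, 919, 1453 and 909 CPM, or 1082 ± 255 CPM (SD, n = 4), rank 53. Library 3 was the highest in both genes and stood further from the rest in Krt16.

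The follicle keratins were far lower. Krt79 held 165, 181, 258 and 251 CPM, or 214 ± 47.6 CPM (SD, n = 4), rank 591. Libraries 3 and 4 were high and libraries 1 and 2 low. Krt75 held 112, 104, 42.9 and 50.4 CPM, or 77.5 ± 35.9 CPM (SD, n = 4), rank 2473. Here libraries 1 and 2 were high and libraries 3 and 4 low, the reverse of Krt79, and the highest to lowest ratio of 2.62 was the largest of the 6 genes. In both genes the split between libraries follows the first part of the sample code, so these libraries may not count as 4 independent units. The counts behind these levels ran from 757 tags, for Krt75 in library 3, to 33239 tags, for Krt6b in library 3. Counting error was thus at most 3.63% of a level for Krt75, and at most 1.82% for the other genes, in every case less than the spread between libraries.

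**Figure D1:**
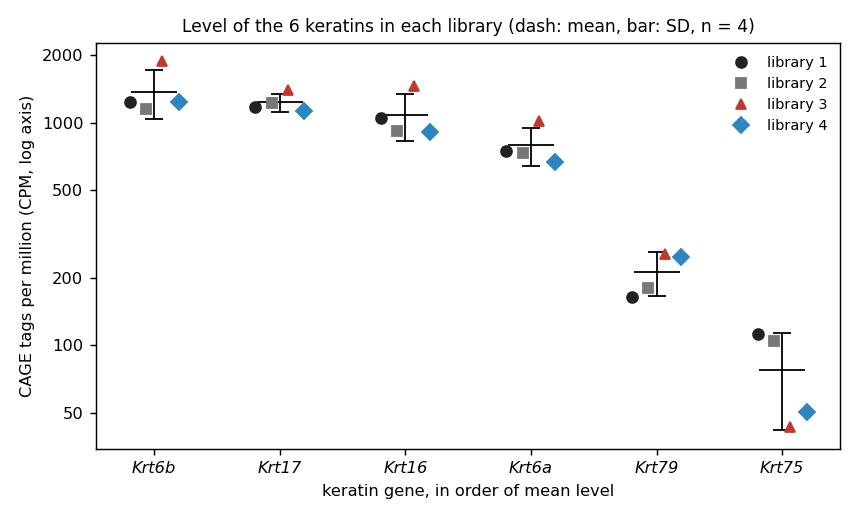
Level of the 6 keratins in each of the 4 libraries, in CPM on a log axis, with genes from left to right in the order of their mean. Symbols are libraries, the dash is the mean and the bar the SD (n = 4); the 4 stress keratins lie between 667 and 1885 CPM, Krt79 between 165 and 258 and Krt75 between 42.9 and 112.

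Neighbours in this order were compared by their log2 ratio within each library, with an exact two-sided sign-flip permutation test over the 4 libraries for 5 pairs. The smallest p that 4 libraries can give is 0.125, so no pair could pass 0.05; with libraries 1 and 2 averaged, and 3 and 4, as their codes would group them, it is 0.5. Krt6b and Krt17 did not differ beyond their spread: the mean log2 ratio was 0.14 ± 0.22 (SD, n = 4), Krt6b was higher in 3 of 4 libraries, and the exact p was 0.375 (adjusted over the 5 pairs, 0.375). Nor did Krt17 and Krt16, at 0.21 ± 0.21 (SD, n = 4), with Krt17 higher in 3 of 4 libraries and an exact p of 0.25 (adjusted, 0.312). Krt17 thus has no settled place beside either. Krt6b and Krt16, a pair added after the values were seen, kept 1 order: Krt6b was higher in 4 of 4 libraries, by a log2 ratio of 0.34 ± 0.08 (SD, n = 4), with overlapping ranges and the smallest exact p of 0.125.

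Krt16 exceeded Krt6a in 4 of 4 libraries, by a log2 ratio of 0.44 ± 0.08 (SD, n = 4), although the ranges of the 2 genes over the libraries overlapped. The ranges did not overlap between Krt6a and Krt79, whose log2 ratio was 1.90 ± 0.33 (SD, n = 4), or between Krt79 and Krt75, at 1.56 ± 1.04 (SD, n = 4). In each of these 3 pairs the exact p was the smallest possible, 0.125 (adjusted, 0.208). The step from Krt79 to Krt75 was small in libraries 1 and 2, with log2 ratios of 0.55 and 0.79, and large in libraries 3 and 4, with 2.59 and 2.31.

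Both sides of the keratin 6, 16 and 17 pairing held similar numbers of tags. The sum of Krt6a and Krt6b was 1990, 1877, 2906 and 1900 CPM, and that of Krt16 and Krt17 was 2221, 2148, 2850 and 2037 CPM. The type II to type I ratio was accordingly 0.896, 0.874, 1.02 and 0.933, a spread of 0.0641 (SD, n = 4) around 0.931. All 6 genes together took 14.5%, 15.4%, 24.6% and 17.7% of the tags of the 49 keratin genes, while all 49 summed to 30991, 27969, 24612 and 23954 CPM. Of all tags, the 6 genes took 0.449%, 0.431%, 0.606% and 0.424%. Library 3 had the highest share by either measure, and library 4 was above libraries 1 and 2 only in the share of keratin tags, whose total was lowest there.

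Library 3 held the highest CPM of 5 of the 6 genes, all but Krt75, which was lowest there. Among 14732 genes of at least 1 CPM on average, 35.3% were highest in library 3, so many genes share this feature with them. With TMM scaling, which corrects for differences in RNA composition between libraries, the same 5 genes were highest in library 3, beside 27.9% of all genes. The ratio of library 3 to the mean of the other 3 was 1.56 for Krt6b, 1.52 for Krt16, 1.43 for Krt6a, 1.30 for Krt79 and 1.19 for Krt17, against 0.482 for Krt75.

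**Figure D2:**
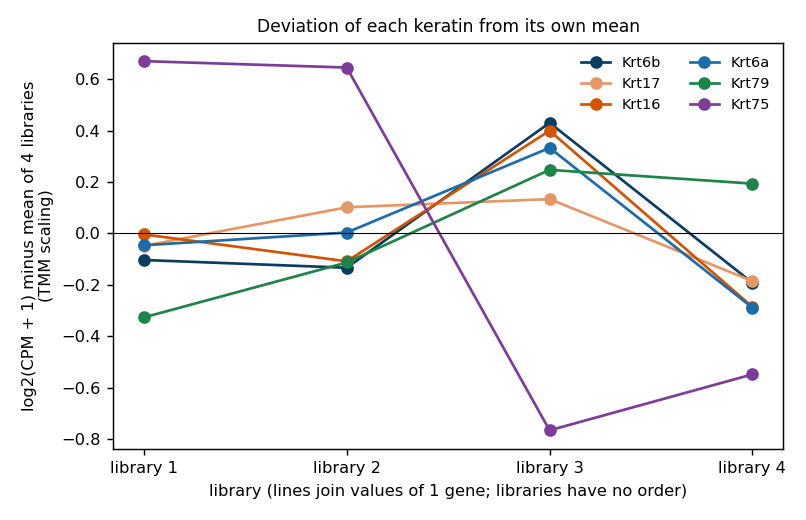
Difference of log2(CPM + 1) from the mean of the 4 libraries, after TMM scaling, for each of the 6 keratins in libraries 1 to 4. Krt75 lies at 0.67 and 0.65 in libraries 1 and 2 and at -0.77 and -0.55 in libraries 3 and 4, while the other 5 genes have their highest value in library 3.

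The spread of each gene over the 4 libraries was set against that of genes with similar levels, with limma over all 14732 genes, on log2(CPM + 1) after TMM scaling, where 1 CPM is added to each level. Of all genes, 34 passed at an adjusted p under 0.05 (0.231% of those tested), and 6.29% had an unadjusted p under 0.05. None of the 6 keratins passed, and 2 of the 6 had an unadjusted p under 0.05, Krt79 only just. Krt75 came nearest, with an SD of 0.76 over the libraries on the log2 scale, an unadjusted p of 0.00153 and an adjusted p of 0.164 in limma. Krt79 followed with an SD of 0.27, an unadjusted p of 0.0499 and a limma adjusted p of 0.794. Its unadjusted p was 0.134 without library 1 and 0.0547 without library 4, which left 1 of the 6 under 0.05, and without scaling 4 were. Adjusted p-values of the other 4 ran from 0.845 for Krt16 to 0.993 for Krt17 in limma. The median SD of the 6 genes was 0.28, against 0.12 over all genes tested, and that of Krt17 alone was 0.15. Without library 3 the SD of Krt6b was 0.04, that of Krt16 0.14 and that of Krt6a 0.16, so the spread of Krt6b and Krt16 rested on that library.

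**Figure D3:**
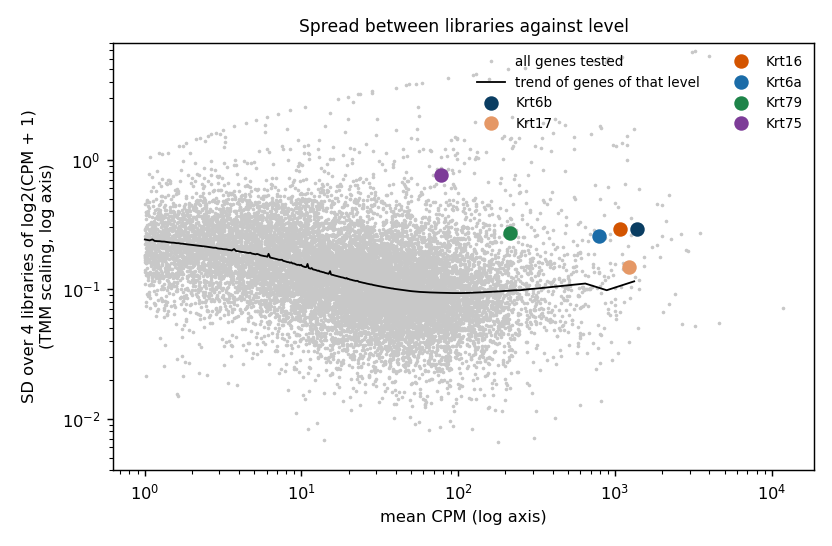
SD over the 4 libraries of log2(CPM + 1), after TMM scaling, against mean CPM, both on log axes, for the 14732 genes tested (grey) and the 6 keratins (colours); the line is the trend of genes of the same level. Krt75 lies furthest above the line among the 6, at an SD of 0.76, and Krt17 nearest to it, at 0.15.

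Lists of other epidermal and follicular genes were set beside these patterns. Keratins of the inner root sheath, the sheath next to the companion layer, summed to 10360, 9334, 4869 and 6890 CPM, and those of the hair shaft to 7723, 6957, 2217 and 1816 CPM. Both sums were high in libraries 1 and 2 and low in 3 and 4, as Krt75 was, a split that again follows the first part of the sample code. All 8 inner root sheath keratins and 14 of 15 hair shaft keratins were highest in library 1. Of all genes tested, 22.8% were highest in library 1 by CPM and 24.99% with TMM scaling. An unadjusted limma p under 0.05 was found for 8 of 8 and 15 of 15, and no gene of either list passed after adjustment in limma. The most abundant were Krt71 and Krt25 of the inner root sheath, with 2218 ± 642 and 1856 ± 468 CPM (SD, n = 4), and Krt87 and Krt33a of the hair shaft, with 1021 ± 727 and 969 ± 695 CPM (SD, n = 4). In whole skin, fewer cells of a type and less RNA per cell cannot be told apart.

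Keratins of the epidermis itself, such as Krt1 and Krt10 of its differentiating layers and Krt5 and Krt14 of its basal layer, made a list of 10 genes that summed to 8292, 7217, 11253 and 10817 CPM. None of the 9 tested passed, and 6 of them were highest in library 3, beside 35.3% of all genes by CPM and 27.9% with TMM scaling. Krt10 held 3000, 2609, 3947 and 4347 CPM, and Krt1 held 2421, 1937, 3313 and 2896 CPM. Unlike the stress keratins, Krt10 was higher in library 4 than in library 3. Keratins of simple and mucosal epithelia stayed low, with a sum of 124 to 213 CPM, of which Krt13 gave 65.0 ± 21.3 and Krt4 gave 33.9 ± 9.57 CPM (SD, n = 4). None of the 6 tested passed in limma, where 6 of 6 had an unadjusted p under 0.05, beside 6.29% of all genes.

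Partners of the stress keratins in inflamed epidermis, such as the cornified envelope precursors of the Sprr family and the calprotectin genes S100a8 and S100a9, summed to 4651, 4891, 6603 and 4609 CPM. Of 15 tested, 13 were highest in library 3, none passed and 8 had an unadjusted limma p under 0.05. Over all genes tested, 35.3% were highest in library 3 by CPM, 27.9% with TMM scaling, and 6.29% had such a p. Sprr1b held 1093, 1160, 1801 and 1029 CPM, with library 3 high and the others together, as for Krt6b and Krt16. Sprr1a held 1498, 1507, 1755 and 1335 CPM, with library 3 highest by a smaller margin, as for Krt17.

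Genes known to control stress keratins, among them AP-1 subunits, Egfr and its ligands, Stat3 and Nfe2l2, had a median SD of 0.13, beside 0.12 for all genes. None of 23 passed in limma, where 5 had an unadjusted p under 0.05, beside 6.29% of all genes. The AP-1 subunit genes Jund and Fosl2 were the most abundant, with 440 ± 30.8 and 315 ± 10.4 CPM (SD, n = 4). In library 3, 15 of the 23 were highest, beside 35.3% of all genes by CPM and 27.9% with TMM scaling.

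A list put together for the upper follicle and companion layer held 11 genes, none of which passed in limma. An unadjusted limma p under 0.05 was found for 3 of them, beside 6.29% of all genes. The list was led by the cystatin gene Cst6, with 1127 ± 103 CPM, and the kallikrein gene Klk7, with 467 ± 88.6 CPM (SD, n = 4). Its sum, most of it from Cst6 and Klk7, was 2003, 2074, 2481 and 2189 CPM. This sum need not reflect the cells that make Krt79 or Krt75, which was not tested. In the list, 5 genes were highest in library 3 and 5 in library 4. Of all genes tested, 35.3% were highest by CPM in library 3 and 35.4% in library 4. Of 10 genes for desmosomes and proteins that bind keratin filaments, none passed in limma and 2 had an unadjusted p under 0.05. Among them the stratifin gene Sfn held 1270 ± 173 CPM and the plakophilin gene Pkp1 held 779 ± 73.5 CPM (SD, n = 4).

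Markers of other cells were set beside the libraries in the same way. In the sebaceous gland, fibroblast, immune and endothelial lists no gene passed in limma. An unadjusted limma p under 0.05 was found for 6 of 8, 4 of 8, 2 of 9 and 0 of 5, in this order, beside 6.29% of all genes tested. Beside the counts that follow, 35.3% of all genes tested were highest in library 3 by CPM and 27.9% with TMM scaling. The 8 sebaceous gland markers were all highest in library 3 and summed to 789 to 1641 CPM, led by Scd1 with 554 ± 218 CPM (SD, n = 4). Fibroblast markers, led by Col1a1 with 2102 ± 574 CPM (SD, n = 4), were highest in library 3 for 6 of 8 genes and summed to 3243 to 6153 CPM. Immune markers, led by S100a8 with 273 ± 64.5 CPM (SD, n = 4), were highest there for 6 of 9 and summed to 451 to 723 CPM. S100a8 is also listed above among the partners of the stress keratins in inflamed epidermis. The immune sum thus need not reflect immune cells alone. Endothelial markers were highest in library 3 for 4 of 5 and summed to 41.2 to 60.7 CPM. They were led by Pecam1 with 25.7 ± 6.37 CPM (SD, n = 4). No gene in these 4 lists was at 0 in any library.

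Skeletal muscle markers, led by Acta1 with 1003 ± 376 CPM (SD, n = 4), were highest in library 4 for 8 of 8 and summed to 2212 to 5557 CPM. None of these 8 passed in limma, where 8 of 8 had an unadjusted p under 0.05. Of all genes tested, 35.4% were highest in library 4 by CPM and 23.1% with TMM scaling. Secretory gland markers summed to 14.4, 31782, 12.9 and 4718 CPM, and 4 of 7 passed the limma test. Bpifa2 was the most abundant of these, and Mucl2, Obp1a and Smr3a had no tag in library 3. The part of these cells in the levels of the 6 keratins was not tested. Of the tissue's own markers, 10 of 10 for epidermis and 9 of 10 for the hair follicle held tags; the tenth, Krt85, was not analysed here.

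Genes with the most similar pattern over the 4 libraries were sought for each keratin among 4046 genes of at least 50 CPM outside the 6, by the root mean square difference of centred log2 levels. With only 4 libraries this is a description. For Krt75 they were S100a3 at 0.0398, Krt72 at 0.0590 and Krt26 at 0.0622. S100a3 is a calcium-binding protein gene of the hair cuticle, and Krt72 and Krt26 are inner root sheath keratins. S100a3 held 185, 166, 66.5 and 83.6 CPM, with libraries 1 and 2 high as in Krt75.

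For Krt79 the nearest genes were Nfatc1 at 0.0234, Fcgbp at 0.0340 and the MHC class II gene H2-Ab1 at 0.0378. Nfatc1, a transcription factor gene known in hair follicle stem cells, held 41.2, 47.0, 64.5 and 63.3 CPM. Krt17 was followed most closely by Cst6 at 0.0199, the cystatin gene Cstb at 0.0207 and Slc35b1 at 0.0224.

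Krt6a was nearest to the water channel gene Aqp3 at 0.0400, Urah at 0.0405 and the interleukin 4 receptor gene Il4ra at 0.0454. Krt16 was nearest to Enah at 0.0411, the basal keratin Krt14 at 0.0516 and Il4ra at 0.0541, and Krt6b to Smpd3 at 0.0317, 2310046K23Rik at 0.0450 and Samhd1 at 0.0564. Krt14, the type I keratin of basal cells, held 712, 593, 992 and 649 CPM. By CPM, library 3 was highest and library 2 lowest, as for Krt6b, but 50.6% of all genes tested were lowest in library 2. With TMM scaling, which the likeness used, Krt6b was lowest in library 4. Within the 6 genes, Krt16 differed from Krt6a by 0.0686 and from Krt6b by 0.0712, and Krt6a from Krt6b by 0.101. Krt75 differed from each of the others by 0.662 to 0.887.

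Each keratin used mainly 1 start region. The most used cluster took 98.7% ± 0.203 of the tags of Krt6b, 98.6% ± 0.0862 of Krt6a, 98.5% ± 0.687 of Krt75, 97.5% ± 0.650 of Krt17, 97.1% ± 0.558 of Krt79 and 97.0% ± 0.490 of Krt16 (SD, n = 4). That this cluster exceeds the rest follows from how it is chosen. Over 4052 genes of at least 50 CPM the median share was 99.0%, and over 28 other keratin genes of that level it was 99.3%, so all 6 keratins lay a little under these medians.

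Positions are those of the deposited file on GRCm38, which leave the first base of a cluster uncertain by 1 bp, and distances are from the annotated start in GENCODE M21. The main cluster of Krt6b, chr15:101680272-101680296, spanned 24 bp across the annotated start, from 9 bp before it to 15 bp after. That of Krt6a, chr15:101694284-101694316, spanned 32 bp, likewise from 9 bp before its start. Krt16 had a main cluster of 31 bp, chr11:100248938-100248969, that lay wholly upstream of its annotated start, at positions -67 to -36. These 3 were narrow beside the median of 149 bp for genes of at least 50 CPM. The 28 other keratins had a median of 54 bp and quartiles of 23.5 and 110.5 bp, and all 3 lay between these quartiles.

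Wider clusters were found in Krt17, chr11:100260897-100261062 with 165 bp, and in Krt79, chr15:101940252-101940432 with 180 bp. The cluster of Krt17 ran from 33 bp before the annotated start to 132 bp after it, into the coding part of exon 1. The cluster of Krt79 ran from 108 bp before its start to 72 bp after, in the 5′ UTR. Krt75 lay between, with 66 bp at chr15:101573843-101573909, from 5 bp before its start to 61 bp after. The ATAAAA printed in capitals for Krt75 thus lay upstream of its whole main cluster, while the ATAAAA of Krt79 lay within its own.

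Outside the main clusters, the 6 genes had 58 clusters under their names, of which 45 lay in exons, 12 upstream of the annotated start and 1 in an intron. In all 6 genes the second most used cluster lay in the coding part of exon 1. Over 3087 coding genes of at least 50 CPM with a second cluster, 27% had it over an annotated coding sequence of the gene. In Krt16, chr11:100248616-100248762 lay 140 to 286 bp after the annotated start and held 17.9, 18.0, 37.7 and 16.1 CPM, or 2.01% of the gene's tags. It was the only second cluster with at least 2%. In Krt17 the second cluster, chr11:100260715-100260744, held 17.9, 15.4, 35.0 and 18.5 CPM, or 1.73%. Those of Krt6b and Krt6a held 13.2 ± 6.24 and 7.07 ± 2.69 CPM (SD, n = 4), and those of Krt79 and Krt75 held 1.84 ± 0.955 and 0.980 ± 0.252 CPM (SD, n = 4). In 5 of the 6 genes, all but Krt75, library 3 held the highest level of the second cluster.

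The remaining clusters were small, from 0 to 6.52 CPM on average, and 1 of Krt79 had no tag at all. A pair of clusters in exon 1 of Krt6a, chr15:101693788-101693795 and chr15:101693806-101693809, stood apart from the rest. They held 20 and 21 tags in library 2, and 0, 1 and 0 tags and 0, 0 and 0 tags in libraries 1, 3 and 4. The 50 bases that follow each of them are identical in Krt6b, so the table does not show from which of the 2 genes these tags came.

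**Figure D4:**
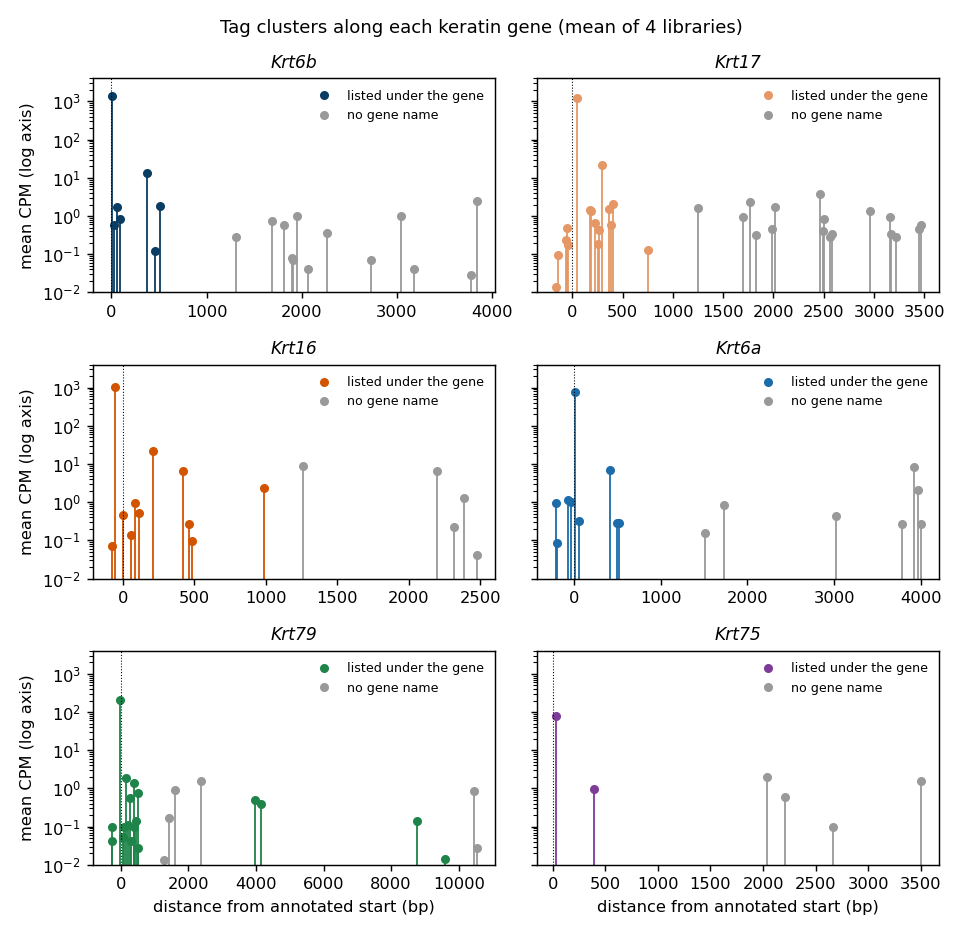
Mean CPM over the 4 libraries, on a log axis, of each cluster along the 6 genes, against the distance of its middle from the annotated start in bp. Coloured points are clusters listed under the gene and grey points are clusters with no gene name inside the gene; the main cluster at the start exceeds the second one by at least 46.7 times in each gene.

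Clusters with no gene name lay further inside all 6 genes on the same strand and enter no level given above. There were 7 in Krt6a, 16 in Krt6b, 5 in Krt16, 17 in Krt17, 4 in Krt75 and 6 in Krt79, with sums of 12.2, 6.68, 17.0, 16.8, 4.24 and 3.56 CPM on average. The largest were 8.92 CPM in exon 3 of Krt16, at chr11:100247560-100247720, and 8.20 CPM in the 3′ UTR of Krt6a, at chr15:101690386-101690392. With these added, the share of the main cluster was 97.1% for Krt6a, 98.2% for Krt6b, 95.5% for Krt16, 96.2% for Krt17, 95.5% for Krt79 and 92.4% for Krt75. On the opposite strand, Krt6a, Krt16 and Krt75 had 1 cluster each within 1000 bp of the gene, of at most 0.506 CPM on average, and the other 3 had none.

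Counting only clusters listed under the gene, the share of tags outside the main cluster was highest in library 3 for all 6 genes. It was 2.65%, 2.95%, 3.75% and 2.81% in Krt16 and 2.20%, 1.93%, 3.42% and 2.39% in Krt17. It was 1.13%, 1.30%, 1.58% and 1.17% in Krt6b and 1.29%, 1.44%, 1.49% and 1.38% in Krt6a. Library 3 stood clear of the others in Krt16, Krt17 and Krt6b and barely above library 2 in Krt6a. In Krt79 the share was 2.03%, 3.06%, 3.23% and 3.14%, with library 1 low and the other 3 together. In Krt75 it was 1.17%, 0.764%, 2.38% and 1.55%, resting on 24, 15, 18 and 14 tags. Of 4863 genes tested for this share, 30.2% had it highest in library 3, and of 22 other keratin genes among them 13 did. With the unnamed clusters inside the gene added, the pattern did not hold in all 6 genes. The share was then 2.96%, 2.96%, 2.83% and 2.89% in Krt6a, lowest in library 3. In Krt79 it was 3.98%, 4.79%, 4.75% and 4.45%, highest in library 2. Library 3 stayed the highest in Krt6b, Krt16, Krt17 and Krt75.

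Whether the share differed between libraries more than in genes with outside tags of the same level was tested with limma on the log2 ratio of main to other tags, with 0.5 tags added to each, over the 4863 genes whose other clusters held at least 1 CPM. It passed at an adjusted p under 0.05 for 14 genes (0.288%), and 5.59% had an unadjusted p under 0.05. None of the 5 keratins tested passed, and 1 had an unadjusted p under 0.05. Krt17 came nearest, with an unadjusted p of 0.00915 and an adjusted p of 0.532 in limma. This rested on library 3, without which its unadjusted p was 0.235 and its SD 0.16 in place of 0.36. The adjusted p of the other 4 ran from 0.933 for Krt16 to 0.993 for Krt6a. Krt75 was not tested, since its other cluster held under 1 CPM.

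**Figure D5:**
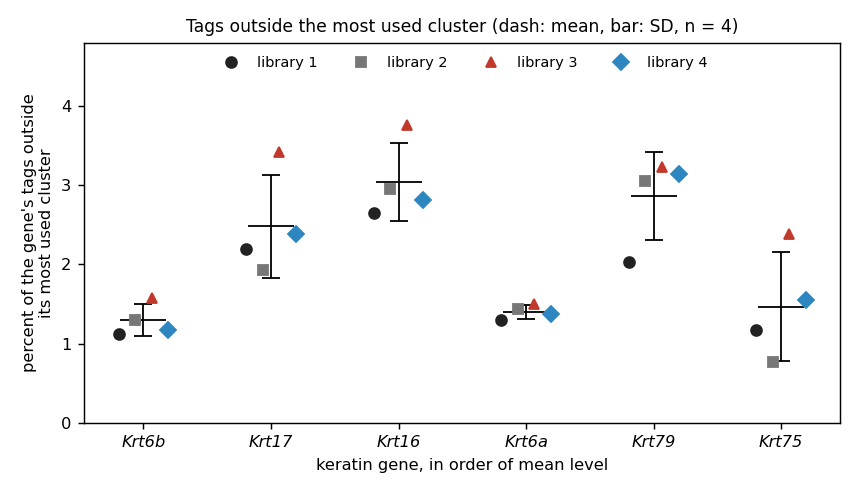
Percent of each gene's tags that lie outside its most used cluster, by library (symbols), with the mean (dash) and SD (bar, n = 4). Clusters with no gene name are left out. The triangle of library 3 is the highest for all 6 genes, from 1.49% in Krt6a to 3.75% in Krt16, and library 1 is the low point of Krt79 at 2.03%.

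Main and outside tags followed the libraries to different degrees. From the mean of the other 3 libraries to library 3, the main cluster of Krt16 stood at a ratio of 1.501 and its other clusters at 2.03. In Krt6b these ratios were 1.56 and 2.06, in Krt17 1.17 and 1.87, in Krt6a 1.43 and 1.56, and in Krt79 1.29 and 1.49. These ratios leave out the unnamed clusters inside the gene. With them added, the outside tags of Krt6a held 22.6, 22.0, 29.3 and 19.6 CPM. Their share was then lowest in library 3, so they rose less there than the main cluster did. Among the ratios of named clusters, Krt75 showed the widest gap: its main cluster stood at 0.476, while the other cluster stood at 1.06. With the unnamed clusters inside the gene added, the tags of Krt75 outside its main cluster held 5.06, 5.05, 6.41 and 4.35 CPM, while the main cluster held 111, 103, 41.9 and 49.7 CPM. These outside tags number 92, 95, 113 and 78, so library 3 stood above library 2 by little more than counting error. The clusters among them differed: 2 in introns held 33, 38, 43 and 29 tags and 19, 26, 43 and 26 tags, highest in library 3. That in exon 3 held 15, 15, 5 and 8 tags, low in libraries 3 and 4 as at the start, and the named one in exon 1 was highest in library 1. The differences between these ratios were not tested beyond the test of the share above.

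Near copies limit how far tags can be assigned. The coding sequences of Krt6a and Krt6b were identical at 97.6% of 1662 aligned positions, and those of Krt16 and Krt17 at 71.0% of 1416. Of the first 50 bases of their GENCODE M21 transcripts, where the main clusters lie, at most 37 matched any stretch of the other gene for Krt6a and Krt6b. The 50 bases after the start of the second cluster of Krt6b, in contrast, were identical to a stretch of Krt6a, and 48 of those of Krt6a matched Krt6b. For the second cluster of Krt75 the best match in the other 5 transcripts was 39 of 50 bases, in Krt6b.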

How the data were processed

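Total RNA, extracted with a column kit, went into a commercial CAGE library kit, per the labels' protocols. BWA, HISAT2 and mm9 are named in the submitters' processing notes without versions. For the making of clusters, the step is not given in the sources used. The coordinates fit GRCm38 with GENCODE M21, so positions are given on that build. The authors deposited CPM per cluster and library. Every value (100%) was a multiple of what 1 tag is worth, within 0.02 tags, which gave back whole tags; all entries held 17630119 to 18823630 tags per library. Of 67319 distinct clusters, 20326 had no gene name; they count in the totals only.

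The tags of all clusters of a gene were added. Spread between libraries was tested with limma 3.58.1 (R 4.3.3): log2(CPM + 1), TMM factors from the genes tested, genes of at least 1 CPM on average, no covariates, a robust prior trended on level, one-sided upper F test, Benjamini-Hochberg adjustment at 0.05. The share test added 0.5 tags and required at least 1 CPM in the other clusters. On this log scale, ranges of low genes are understated. edgeR 4.0.16 and DESeq2 1.42.0 served as alternatives.

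All 6 genes are named with their values. Clusters were described if most used or holding at least 2% of a gene's tags, and other clusters, named for a contrast with these, were chosen after their values were seen. From each gene list the 2 most abundant genes were named, with any that passed, and from each marker list the most abundant. For likeness, 3 genes per keratin were named. The 6 genes and all lists were chosen with earlier results of these data known. Krt85, Krt20, Krt76, Il36a, Il36g, Dcpp1 and Cd79a were listed and are not analysed here.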

Additional observations from a re-analysis of the deposited data

Results flagged for a closer look

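In groups of 4 libraries, a library was marked where its gap to the nearest other divided by the range of the group exceeded Dixon's 95% critical value. Of 17 groups of values examined, 2 were marked, and chance marks about 1 in 20. The level of Krt6b was marked for library 3, at 1885 CPM, where the gap was 0.872 of the range. The percent of the tags of Krt79 outside its most used cluster was marked for library 1, at 2.03%, where the gap was 0.857 of the range.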

How the results depend on the processing

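The count of genes that passed the limma test of spread moved with several settings, from 34 to 104 without scaling, 56 with a pseudocount of 0.5 CPM, 61 without a filter on level, 16 with a filter at 10 CPM, 62 with the most used cluster only and, as an alternative chosen after seeing the data, 56 with TMM factors from all kept genes. It was 57, 52, 112 and 10 without libraries 1, 2, 3 and 4. By edgeR on the recovered tags it was 33. For the share of the main cluster the count moved from 14 to 3 with other clusters of at least 5 CPM and 25 with at least 0.5 CPM, and ran from 7 to 20 when each library was left out, with the 7 reached without library 2. None of the 6 keratins passed for spread in any of these settings, nor any of the 5 tested for the share: adjusted p-values, by limma or edgeR, ran from 0.111 to 0.996 for spread and from 0.305 to 0.996 for the share. The number of keratins with an unadjusted p under 0.05 for spread ran from 1 to 4. The share of Krt75 could be fitted in 3 alternatives, with adjusted p-values of 0.952, 0.978 and 0.874. Each log2 ratio between neighbours kept its sign in all alternatives. This was largely fixed in advance, since the pairs were ordered by mean level in these same libraries. Without library 3 the log2 ratio of Krt6b over Krt17 fell to 0.04. With libraries 1 and 2 averaged, and 3 and 4, as their codes would group them, the exact permutation p was 1 for Krt6b over Krt17 and 0.5, the smallest possible, for the other 4 pairs. The other tests take the 4 libraries as independent. The same 5 genes were highest in library 3 under every scaling and with the most used cluster only. No comparison of conditions, paired or not, was possible because the labels name 1 group. Pairing by library was used only between genes, for the ratios of neighbours. Having 4 libraries limits the precision of every value here, and only large differences between libraries could pass. The cause of these shifts was not tested.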
